A study of Mus musculus with 12 samples.

Results

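This report describes 10 genes of the MHC class I pathway in mouse microglia: B2m, which encodes the light chain beta-2 microglobulin, and the heavy chain genes H2-K1, H2-D1, H2-Q4, H2-Q6, H2-Q7, H2-T22, H2-T23, H2-T24 and H2-M3. They were chosen by symbol, whatever their values, from a table of 24328 gene symbols, and all 10 were in it. Microglia, the resident macrophages of the brain, were sorted from perfused brains of wild-type BALB/c mice, with 4 mice and 4 libraries in each of 3 groups. Control mice received no transplant. Syngeneic and allogeneic recipients shared lethal irradiation, a graft of 5000000 bone marrow cells with 300000 T cells, and death on day 14, which the labels call the peak of graft-versus-host disease (the attack of donor T cells on the host); they differed in whether the donor was matched to the host. The sources used here do not give the donor strain, the sorting gate, or the age and sex of the mice, and host microglia cannot be told apart from donor-derived macrophages by the labels.

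A class I molecule is a heavy chain that spans the membrane, paired with beta-2 microglobulin and a short peptide, and CD8 T cells read that peptide. The proteasome cuts the peptide, the TAP transporter carries it into the endoplasmic reticulum, and a heavy chain without light chain or peptide is mostly retained there. Of the genes described here, H2-K1 and H2-D1 are the classical, highly polymorphic heavy chains, while the Q, T and M genes are non-classical and vary less. Interferons raise transcription of most of these genes, and resting microglia are known for low class I levels.

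Library totals lay between 32652208 and 46126118 counts, and 12695 of the 18018 genes with any count passed a filter on low counts and were tested. The 8 microglia markers looked at, among them P2ry12 and Tmem119, were all tested, and their summed level was 42219 to 48190.0 CPM (counts scaled to the size of the library) in control, 38577 to 40839 in syngeneic and 27552 to 28787 in allogeneic libraries. In a bulk library, fewer cells of a type and less RNA per cell cannot be told apart. CPM here are scaled by TMM factors, which differed by group (0.844 to 0.893 in allogeneic, 1.002 to 1.021 in syngeneic and 1.10 to 1.16 in control libraries). With library totals as the only scaling, the median log2 fold change over all tested genes was -0.22 in allogeneic against syngeneic, -0.20 in syngeneic against control and -0.44 in allogeneic against control, so that 844 genes were called higher and 2108 lower in the first (1288 and 810 with TMM), 2723 and 3968 in the second (3357 and 3253), and 2453 and 5259 in the third (3576 and 3697). "Rose" and "fell" below are used of genes with an adjusted p under 0.05 (edgeR, quasi-likelihood test, Benjamini-Hochberg adjustment over all tested genes).

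The heavy chains resemble each other closely, and this bears on how reads can be assigned to them. The same 60 coding bases, near the 5′ end of the coding sequence and taken from reference transcripts of the C57BL/6-derived genome, are shown for 5 of the heavy chains, with capitals where a base differs from H2-K1.
H2-K1: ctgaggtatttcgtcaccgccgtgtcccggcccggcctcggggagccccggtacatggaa
H2-D1: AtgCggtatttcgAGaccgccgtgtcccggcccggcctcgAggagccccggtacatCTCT
H2-Q7: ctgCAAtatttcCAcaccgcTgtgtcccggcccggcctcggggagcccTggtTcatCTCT
H2-T23: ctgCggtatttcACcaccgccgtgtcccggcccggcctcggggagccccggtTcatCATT
H2-M3: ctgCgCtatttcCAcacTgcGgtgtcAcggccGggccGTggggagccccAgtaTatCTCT
In this stretch H2-D1 differed from H2-K1 at 9 bases, H2-Q7 at 12, H2-T23 at 8 and H2-M3 at 16. Over the aligned coding sequence, identity was 91.4% between H2-K1 and H2-D1, 95.5% between H2-Q6 and H2-Q7, 82.2% between H2-K1 and H2-T23, 71.3% between H2-K1 and H2-M3 and 58.3% between H2-K1 and H2-T24. Of all 50-base windows of a reference transcript, the share found in no other gene was 100% for B2m, 99.4% for H2-M3, 96.8% for H2-T24, 91.2% for H2-K1, 85.7% for H2-D1, 75.7% for H2-Q4 and 71.2% for H2-T23. It was lowest for H2-Q6 at 68.0%, H2-Q7 at 65.1% and H2-T22 at 55.3%. The sources used here do not say how reads of shared sequence were counted, and BALB/c mice carry other class I alleles than the strain of the reference. The values of H2-K1, H2-D1, H2-Q4 and H2-T23 are therefore uncertain in level, and their changes may in part be those of each other. Those of B2m, H2-T24 and H2-M3 rest on sequence that is nearly all their own.

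H2-Q6 and H2-Q7, non-classical genes of the Qa-2 group, were listed at 0 counts in all 12 libraries. Over a group, a count of 0 allows up to 0.0202 CPM of library totals in control, 0.0181 in syngeneic and 0.0190 in allogeneic microglia; this limit covers counting error only. H2-T22, whose product is known as a ligand of some gamma delta T cells, had 2 counts in the control group, 0 in the syngeneic and 6 in the allogeneic group, too few for a comparison. These 3 genes were not tested, and counts of changed members below are out of the 7 others. Other class I genes of the H2 complex listed at 0 counts in all libraries were H2-Q9 and H2-T9, for which no share of unique windows is given here. H2-M1, H2-M9, H2-M10.1 and H2-M11, with 96.2% to 100% of their windows unique, also had no counts. The cause of the zero counts was not tested.

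**Figure D1:**
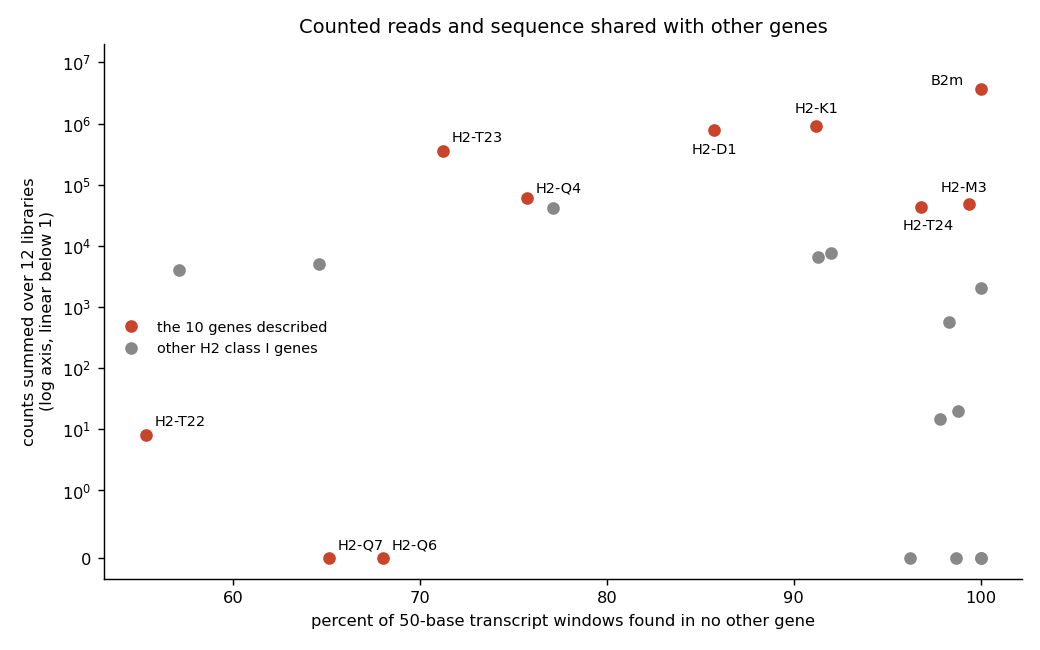
Counts summed over the 12 libraries (vertical axis, logarithmic, linear below 1) against the percent of 50-base windows of the reference transcript found in no other gene (horizontal axis), for the 10 genes described (red) and other class I genes of the H2 complex (grey). H2-Q6 and H2-Q7 lie at 0 counts at 68.0% and 65.1%, close to H2-T23 at 71.2%, which was counted in every library.

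All 7 tested genes were higher in allogeneic than in syngeneic microglia, by a log2 fold change of 1.36 to 3.34, and for each of the 7 all 4 allogeneic libraries lay above all 4 syngeneic ones. Of all tested genes, 10.15% were called higher in this comparison and 20.72% had non-overlapping libraries in either direction. In syngeneic against control, 5 of the 7 rose, where 26.44% of all genes did, 1 fell, where 25.62% did, and 1 was not called. Libraries of those groups did not overlap for 5 of the 7 genes, against 50.04% of all genes. The median log2 fold change of the 7 was 2.64 in allogeneic against syngeneic and 1.05 in syngeneic against control, where the medians of all tested genes were -0.01 and -0.03. Both comparisons use the syngeneic libraries. Allogeneic against control, which shares libraries with both, had all 7 higher, against 28.17% of all genes; the log2 fold change was 4.69 ± 0.14 for H2-K1, 4.60 ± 0.16 for H2-D1, 4.37 ± 0.15 for H2-Q4, 3.32 ± 0.07 for B2m, 3.03 ± 0.12 for H2-T23, 1.38 ± 0.13 for H2-T24 and 1.13 ± 0.11 for H2-M3.

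Markers of other cells moved with the groups. The summed level of 9 markers of engrafted macrophages and monocytes was 18.3 to 20.8 CPM in control, 44.0 to 76.7 in syngeneic and 318 to 481 in allogeneic libraries; 4 of the 7 tested rose in allogeneic against syngeneic, Ms4a7, Plac8, Fn1 and Ms4a4c. T cell markers, of which 8 of 10 had counts listed, summed to 1.39 to 2.53, 0.28 to 4.24 and 0.88 to 3.18 CPM in the same order. Neither of the 2 tested was called in allogeneic against syngeneic, while 1 of them, Cd2, rose in syngeneic and in allogeneic against control. Cd2 had at most 3 counts over the control group and passed the filter only through transplanted mice. Its rise against control was therefore built into its being tested. Natural killer markers summed to at most 0.026, 0.177 and 2.40 CPM, with Ncr1, Gzma and Prf1 at 0 in all libraries. The only 1 of the 7 that was tested, Klrb1c, was called higher in allogeneic against syngeneic and against control (log2 fold change 6.42 and 8.64). Klrb1c had at most 3 counts in each of the other groups and passed the filter only through allogeneic libraries. A rise was therefore built into its being tested. Choroid plexus markers summed to 21.2 to 143 CPM in control, 1411 to 2452 in syngeneic and 411 to 779 in allogeneic libraries. Other lists moved mainly between control and both transplanted groups. B2m rose in syngeneic and in allogeneic against control, while H2-M3 fell in syngeneic and rose in allogeneic against control. Border-associated macrophage markers summed to 1.49 to 6.54 CPM in control, 21.8 to 34.6 in syngeneic and 20.8 to 28.4 in allogeneic libraries. Astrocyte markers summed to 1.16 to 3.32, 29.6 to 47.9 and 26.9 to 38.6 CPM, and dendritic cell markers, which went the other way, to 18.6 to 25.4, 2.81 to 5.17 and 5.41 to 8.89 CPM. The part of these cells in the class I levels was not tested.

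B2m, the light chain that every class I heavy chain needs to reach the cell surface, was the most abundant of the 10 in every library. It stood at 1986, 1858, 1739.9 and 1779 CPM in the 4 control libraries. In the syngeneic libraries it was at 4548, 5449, 5423 and 5535 CPM, and in the allogeneic libraries at 17834, 19082, 19395 and 17354 CPM. The 3 groups were far apart relative to their spread: 1841 ± 109 CPM in control, 5239 ± 463 in syngeneic and 18416 ± 978 in allogeneic mice (mean ± SD, n = 4 each, as for all levels below). B2m rose by 1.51 ± 0.07 on the log2 scale (± SE) in syngeneic against control (edgeR adjusted p = 5.57e-12). It rose again by 1.81 ± 0.07 in allogeneic against syngeneic (edgeR adjusted p = 2.01e-12), and its p ranked 4th smallest of all tested genes there. B2m has a short transcript of 0.86 kb with 41.2% GC, where the heavy chains have 1.44 to 2.18 kb and 49.0% to 57.2% GC. With an offset for transcript length and GC content, its rise was 0.84 in syngeneic against control and 2.31 in allogeneic against control, instead of 1.51 and 3.32, still called (edgeR adjusted p = 3.43e-08 and 8.69e-14), and 1.47 in allogeneic against syngeneic. Its size in comparisons with control therefore depends on that setting, and its direction does not. Heavy chain sizes moved too. With the offset, H2-K1, H2-D1 and H2-Q4 rose by 1.67, 1.78 and 1.42 in syngeneic against control, instead of 1.36, 1.26 and 1.05. The log2 fold change of H2-M3 was -0.71 there instead of -0.53, and 0.79 instead of 1.13 in allogeneic against control. H2-T23 and H2-T24 moved less in both comparisons.

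**Figure D2:**
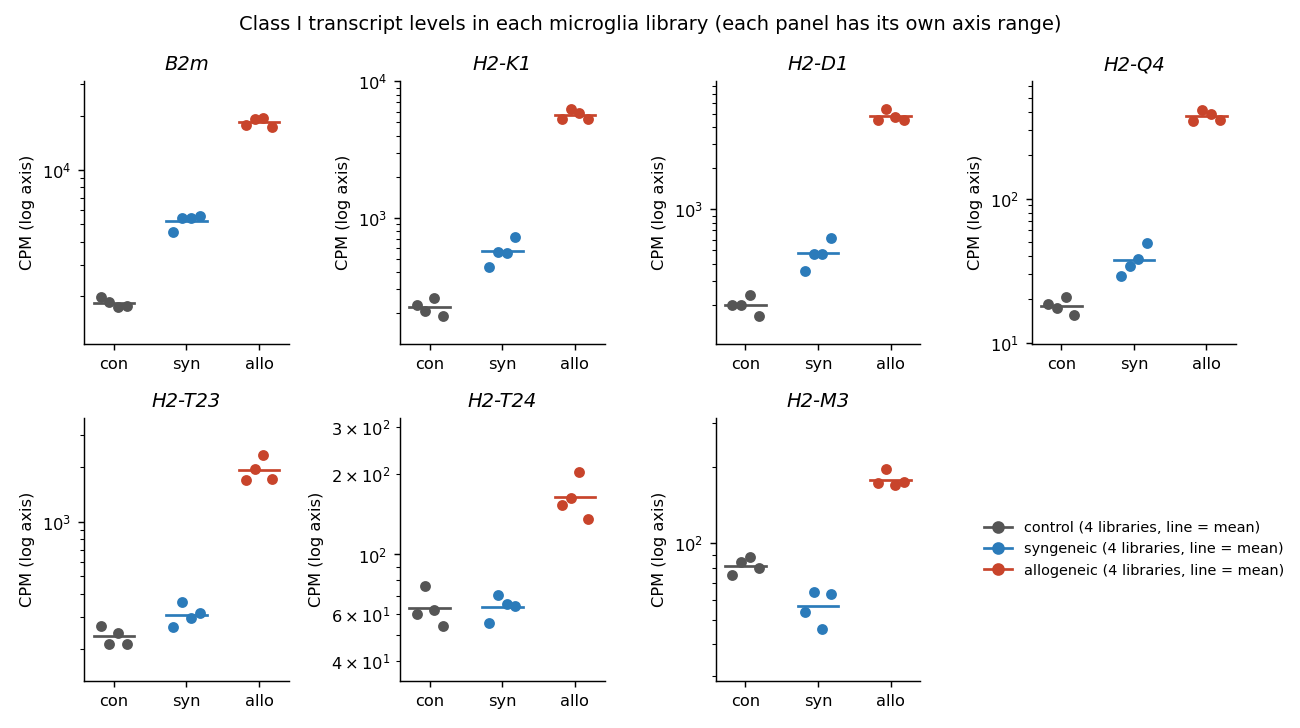
CPM (TMM-scaled, logarithmic axes with a range of their own in each panel) of the 7 tested genes in control (grey), syngeneic (blue) and allogeneic (red) libraries; each point is 1 library and each line the mean of 4. The allogeneic points lie above the syngeneic ones in every panel, while H2-T24 control and syngeneic points overlap (53.9 to 76.1 against 55.5 to 70.3 CPM) and H2-M3 syngeneic points lie below the control ones.

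The classical heavy chains rose modestly with a syngeneic graft and about 10-fold further with an allogeneic one. H2-K1 stood at 228, 205, 259 and 189 CPM in control, 431, 562, 555 and 717 in syngeneic, and 5256, 6282, 5872 and 5311 in allogeneic libraries. H2-D1 stood at 199, 198, 234 and 164 CPM in control, 352, 467, 470.1 and 618 in syngeneic, and 4490.4, 5466, 4786 and 4505 in allogeneic libraries. For both genes no library of one group reached the range of another. H2-K1 rose by 1.36 ± 0.13 on the log2 scale in syngeneic against control and by 3.33 ± 0.14 in allogeneic against syngeneic (edgeR adjusted p = 1.62e-07 and 6.42e-11). H2-D1 rose by 1.26 ± 0.14 and 3.34 ± 0.15 (edgeR adjusted p = 2.69e-06 and 6.45e-10). After group means were subtracted, their log2 levels had a Pearson r of 0.98 over the 12 libraries; the pair shares library, scaling and sequence.

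Among the non-classical heavy chains, H2-Q4 moved as the classical ones did. H2-Q4, of the Qa region, stood at 18.4, 17.4, 20.9 and 15.6 CPM in control, 29.2, 34.0, 37.9 and 48.7 in syngeneic, and 347, 409, 386 and 349 in allogeneic libraries. It rose by 1.05 ± 0.13 in syngeneic against control and 3.32 ± 0.14 in allogeneic against syngeneic (edgeR adjusted p = 2.35e-06 and 1.26e-11), with no overlap between groups. Its within-group r was 0.971 with H2-K1 and 0.969 with H2-D1. Only 75.7% of its 50-base windows are unique, and it had 51693 counts in the allogeneic group, where H2-K1 had 787843. How far reads of the classical genes entered its counts, and so its fold changes and r, was not tested.

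H2-T23 encodes Qa-1, which presents leader peptides of other class I chains to the CD94/NKG2 receptors of natural killer and T cells. Its levels were 268, 212, 244 and 213 CPM in control and 262, 359, 296 and 313 in syngeneic libraries, and these ranges overlapped. In allogeneic libraries it was at 1694, 1946, 2328 and 1713 CPM, above all others. H2-T23 rose by 2.64 ± 0.11 in allogeneic against syngeneic (edgeR adjusted p = 1.89e-11). Its rise in syngeneic against control was small, 0.39 ± 0.11 (edgeR adjusted p = 0.00534), and was not called with library totals as the only scaling (0.23, adjusted p = 0.0614).

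H2-T24, the T region gene least like H2-K1 among the members, did not pass the test in syngeneic against control and rose in allogeneic mice. It was at 59.7, 76.1, 61.9 and 53.9 CPM in control and 55.5, 70.3, 65.3 and 64.3 in syngeneic libraries, and at 153, 163, 203 and 135 in allogeneic ones. The log2 fold change was 0.02 ± 0.13 in syngeneic against control (edgeR adjusted p = 0.905), with a sign that differed between settings (-0.15 to 0.13). In allogeneic against syngeneic H2-T24 rose by 1.36 ± 0.13 (edgeR adjusted p = 2.83e-07).

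H2-M3, which presents N-formylated peptides of bacteria and mitochondria, moved in opposite directions in the 2 comparisons. It was at 74.8, 84.4, 88.1 and 79.9 CPM in control and lower, at 53.6, 64.2, 45.9 and 63.5 CPM, in syngeneic libraries. In allogeneic libraries it was at 173, 196, 169.6 and 175 CPM. H2-M3 fell by 0.53 ± 0.11 on the log2 scale in syngeneic against control (edgeR adjusted p = 0.000418) and rose by 1.65 ± 0.11 in allogeneic against syngeneic (edgeR adjusted p = 2.49e-09). Against control, allogeneic libraries were 1.13 ± 0.11 higher (edgeR adjusted p = 5.03e-08). The groups did not overlap in either comparison, but the fall did not pass a test against a log2 fold change limit of 0.5 (adjusted p = 0.362).

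**Figure D3:**
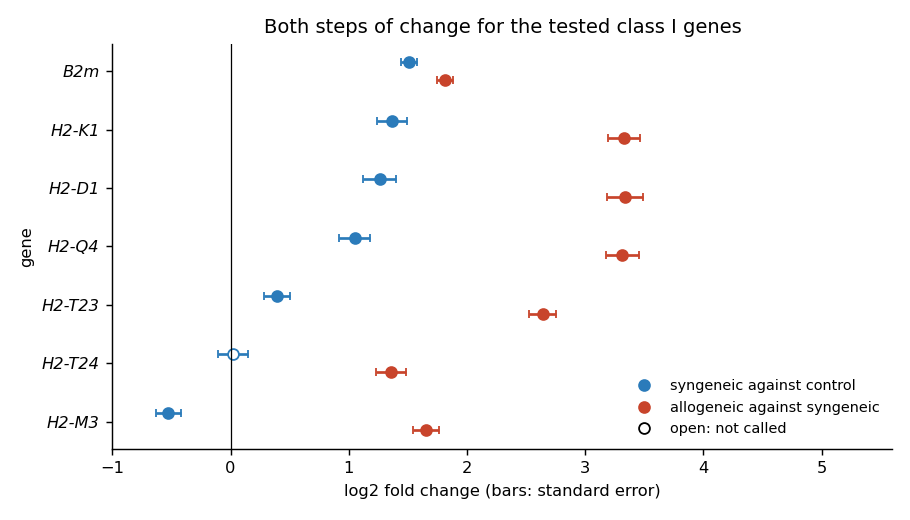
Log2 fold changes (points) with standard errors (bars) of the 7 tested genes in syngeneic against control (blue) and allogeneic against syngeneic (red); the open point, H2-T24, was not called. The red points run from 1.36 to 3.34 and each lies right of the blue point of the same gene; blue points run from -0.53 for H2-M3 to 1.51 for B2m.

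The step from syngeneic to allogeneic was larger than the step from control to syngeneic for all 7 genes, by a test of the difference of the steps in the same fit, where 14.40% of all genes were called higher. The difference was 1.96 ± 0.22 on the log2 scale for H2-K1, 2.07 ± 0.25 for H2-D1 and 2.27 ± 0.23 for H2-Q4. It was 2.25 ± 0.20 for H2-T23, 2.18 ± 0.19 for H2-M3 and 1.34 ± 0.23 for H2-T24. For B2m it was only 0.30 ± 0.11 (edgeR adjusted p = 0.0494), and that call was lost in 13 of 22 alternatives. With the GC and length offset the B2m difference was larger, 0.64 ± 0.12 (edgeR adjusted p = 0.000948), and with the offset and the replicate block it was 0.64 ± 0.13 (edgeR adjusted p = 0.00253). Without syngeneic replicate 1, whose B2m level was the lowest of its group, the B2m difference was 0.18 (adjusted p = 0.233).

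To compare levels between genes, CPM were divided by transcript length. On this scale B2m led in all groups, at 2141 ± 126 CPM per kb in control, 6091 ± 539 in syngeneic and 21414 ± 1137 in allogeneic libraries. In control microglia H2-T23 (159 ± 18.1) and H2-K1 (136 ± 18.7) followed with overlapping ranges, then H2-D1 (94.6 ± 13.7), H2-M3 (56.9 ± 3.99), H2-T24 (28.8 ± 4.31) and H2-Q4 (10.08 ± 1.23). In syngeneic microglia H2-K1 (350 ± 72.3 CPM per kb), H2-D1 (227 ± 51.7) and H2-T23 (209 ± 27.5) came next, each overlapping its neighbour, and H2-M3 (39.5 ± 6.06), H2-T24 (29.3 ± 2.83) and H2-Q4 (20.9 ± 4.64) last; H2-T24 overlapped both of its neighbours. In allogeneic microglia no neighbours overlapped, in the order H2-K1 (3509 ± 302), H2-D1 (2289 ± 217), H2-T23 (1304 ± 200.4), H2-Q4 (208 ± 16.8), H2-M3 (124 ± 8.23) and H2-T24 (75.0 ± 13.1). H2-Q4 thus stood last in control and above H2-M3 and H2-T24 in allogeneic libraries.

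The classical chains held a larger share of the heavy chain counts in transplanted than in control microglia, and the T and M chains a smaller one. H2-K1 and H2-D1 gave 26.9 ± 1.12% and 24.3 ± 1.32% of heavy chain counts in control, 37.4 ± 1.45% and 31.4 ± 1.91% in syngeneic, and 43.3 ± 0.38% and 36.7 ± 1.28% in allogeneic libraries. The share of H2-T23 went the other way, 28.8 ± 2.34%, 20.6 ± 2.60% and 14.6 ± 1.58% in the same order. H2-M3 held 10.08 ± 1.04%, 3.81 ± 0.63% and 1.36 ± 0.09%, and H2-T24 7.75 ± 1.26%, 4.29 ± 0.52% and 1.24 ± 0.17%. Shares are of counts, not per length, and no test was made of them. Together the 10 genes took up 0.301 ± 0.010% of all counts in control, 0.680 ± 0.075% in syngeneic and 2.76 ± 0.14% in allogeneic libraries.

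**Figure D4:**
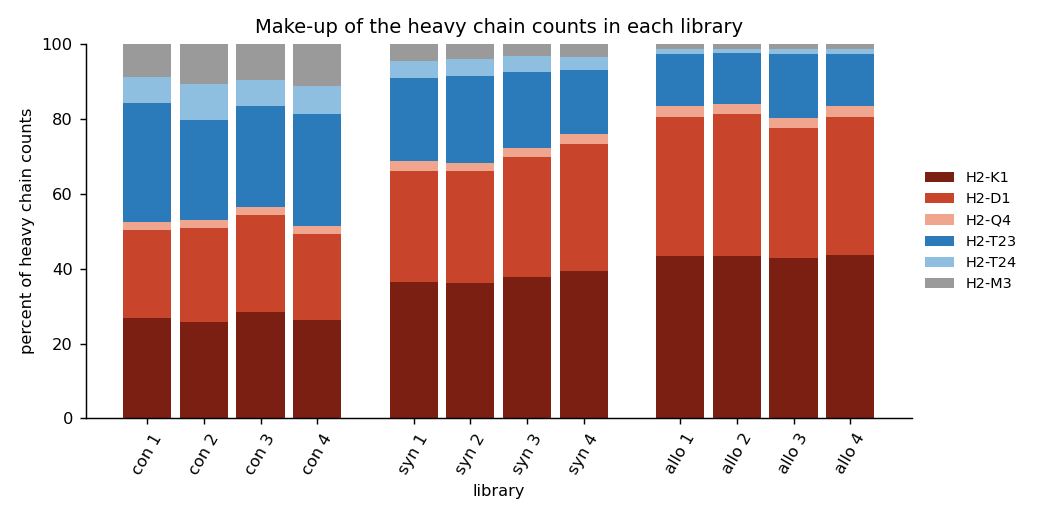
Percent of the summed heavy chain counts (vertical axis) held by each of 6 heavy chains in each of the 12 libraries (bars, 4 per group); H2-Q6, H2-Q7 and H2-T22 add less than can be seen. H2-K1 and H2-D1 (dark red and red) hold 26.9% and 24.3% on average in control and 43.3% and 36.7% in allogeneic libraries.

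Since a heavy chain pairs with 1 light chain, heavy chain counts were also set against B2m in the same library, a ratio that does not depend on scaling between libraries. For every 100 B2m counts there were 11.996 ± 1.94 counts of H2-K1 in control, 10.7 ± 1.52 in syngeneic and 30.8 ± 1.48 in allogeneic libraries. H2-D1 had 10.8 ± 1.85, 9.04 ± 1.47 and 26.1 ± 1.77, and H2-Q4 0.985 ± 0.145, 0.712 ± 0.117 and 2.02 ± 0.085. In allogeneic against syngeneic these 3 ratios were higher, by 2.89-fold, 2.91-fold and 2.87-fold, and that of H2-T23 by 1.77-fold; in each case the 4 allogeneic libraries lay above the 4 syngeneic ones (exact permutation test, two-sided, p = 0.0286, the smallest that 4 against 4 allow; adjusted p = 0.0429 over 21 tests). The ratio of H2-T24 was lower, 0.885 ± 0.113 against 1.22 ± 0.054 counts per 100 B2m counts (exact permutation adjusted p = 0.0429), and that of H2-M3, 0.970 ± 0.068 against 1.09 ± 0.161, did not differ by this test (exact adjusted p = 0.347).

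In syngeneic against control the heavy chains did not gain on B2m. The ratios of H2-K1, H2-D1 and H2-Q4 were 0.90, 0.83 and 0.72 times those in control and were not called (exact permutation adjusted p = 0.39, 0.2 and 0.075). The ratio of H2-T23 was lower in all 4 syngeneic libraries, 5.87 ± 0.50 against 12.7 ± 1.23 counts per 100 B2m counts. So were those of H2-T24, 1.22 ± 0.054 against 3.42 ± 0.515, and H2-M3, 1.09 ± 0.161 against 4.47 ± 0.533 (exact permutation adjusted p = 0.0429 each). All 9 heavy chains together gave 44.4 ± 5.30 counts per 100 B2m counts in control, 28.7 ± 3.04 in syngeneic and 71.2 ± 3.31 in allogeneic libraries. With the offset for GC content and length, added after seeing the data, the syngeneic against control differences of H2-K1, H2-D1 and H2-Q4 turned, to 0.82, 0.93 and 0.57 on the log2 scale (exact permutation adjusted p = 0.0333 each), and the H2-T24 difference between allogeneic and syngeneic was no longer called (-0.19, exact adjusted p = 0.12). The higher ratios of H2-K1, H2-D1, H2-Q4 and H2-T23 in allogeneic against syngeneic held with it (1.81, 1.89, 1.83 and 1.04). The cause of this dependence was not tested.

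**Figure D5:**
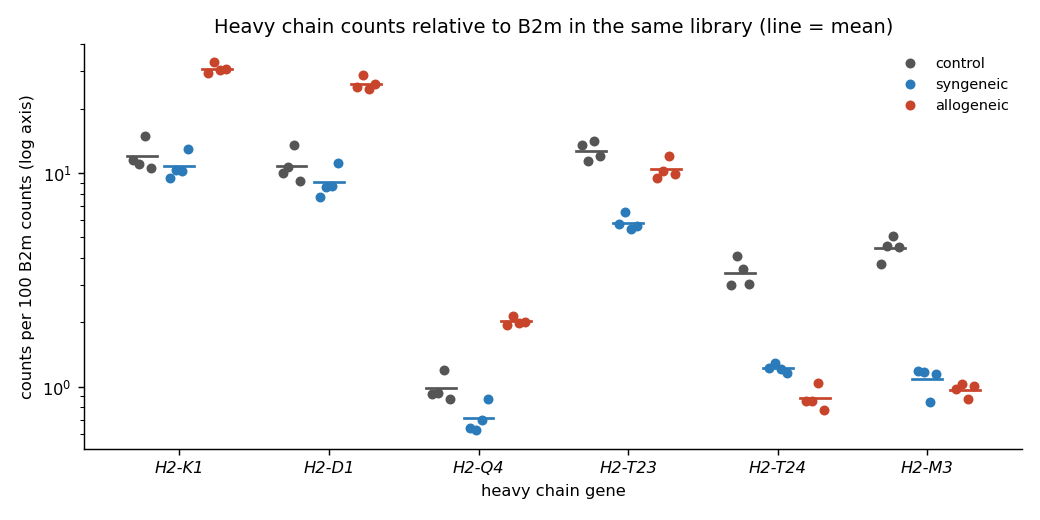
Counts of each heavy chain per 100 B2m counts of the same library (logarithmic axis) in control (grey), syngeneic (blue) and allogeneic (red) libraries; points are libraries and lines means of 4. H2-K1 and H2-D1 sit at 29.5 to 32.9 and 24.7 to 28.6 in allogeneic libraries, above all others, while H2-T24 and H2-M3 are highest in control.

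H2-K1 and H2-D1 kept nearly the same proportion to each other. Their count ratio was 1.11 ± 0.052 in control, 1.19 ± 0.028 in syngeneic and 1.18 ± 0.033 in allogeneic libraries. The difference between allogeneic and syngeneic was -0.01 on the log2 scale (exact permutation adjusted p = 0.657); with the GC and length offset it was called, at -0.08 (exact permutation adjusted p = 0.0333). The ratio in syngeneic libraries was 1.08 times that in control, with no overlap (exact permutation adjusted p = 0.0429), and this small difference turned to -0.11 with the GC and length offset.

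Class I promoters are known to hold a kappaB enhancer, an interferon-stimulated response element (ISRE) and a module with CRE-like and CCAAT letters. They are shown for the 6 tested genes with an entry, since these all rose in allogeneic against syngeneic: 120 bases around the matches, within the 201 bases before the RefSeq start site, from RefSeq promoters of build GRCm38.p6, 5′ to 3′ on the gene's strand. Capitals mark matches, on either strand, to the ISRE core (TTTC, 2 bases of any kind, TTTC), the long kappaB form (GGGGA, 1 base of any kind, TCCC) and TTTCACTT, the last chosen after seeing the sequences.
B2m, chr2:122147518-122147637, plus strand: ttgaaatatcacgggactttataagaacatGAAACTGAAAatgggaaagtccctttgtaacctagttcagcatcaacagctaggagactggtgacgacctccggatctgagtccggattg
H2-K1, chr17:34000369-34000488, minus strand: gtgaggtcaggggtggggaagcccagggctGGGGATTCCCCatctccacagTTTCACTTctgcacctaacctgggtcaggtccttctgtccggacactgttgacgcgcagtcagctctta
H2-D1, chr17:35262893-35263012, plus strand: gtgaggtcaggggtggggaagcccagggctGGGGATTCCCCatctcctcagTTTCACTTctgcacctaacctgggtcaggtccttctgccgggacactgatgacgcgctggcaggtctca
H2-Q4, chr17:35379434-35379553, plus strand: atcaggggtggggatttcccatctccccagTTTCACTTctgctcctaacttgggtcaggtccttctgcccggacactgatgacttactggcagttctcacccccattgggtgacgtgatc
H2-T23, chr17:36032736-36032855, minus strand: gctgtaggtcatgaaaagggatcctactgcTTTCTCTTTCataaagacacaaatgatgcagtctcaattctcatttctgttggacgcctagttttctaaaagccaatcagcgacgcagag
H2-M3, chr17:37270103-37270222, plus strand: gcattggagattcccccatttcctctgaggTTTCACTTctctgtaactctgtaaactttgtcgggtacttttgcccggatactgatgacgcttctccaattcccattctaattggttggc
The H2-K1 and H2-D1 stretches differ at 8 of 120 bases. Over the whole promoter entries (250 bases before to 50 after the start), the long kappaB form was in 4 of the 9 members with an entry, H2-K1, H2-D1, H2-Q6 and H2-Q7, and in 0.3% of all 32851 promoters. The ISRE core was in 3 of 9, B2m, H2-T22 and H2-T23, against 3.4%, and TTTCACTT in 7 of 9, against 1.6%; in H2-T22 the match to TTTCACTT lies within that to the ISRE core. CCAAT was in 9 of 9, against 37.4%, the CRE-like core TGACG in 7 of 9, against 20.8%, and the interferon-gamma element TTCNNNGAA in 1 of 9, against 8.3%. The short kappaB form (GGG, 5 bases of any kind, CC), which every match to the long form also holds, was in 8 of 9, against 50.8%. H2-Q6 and H2-Q7, listed at 0 counts, share several of these letters with H2-K1 and H2-D1. These are matches of letters in a reference of another strain and show no binding. Promoters of related heavy chains, such as H2-K1 and H2-D1, resemble each other. The members are therefore not independent cases, and no share was tested.

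Other genes of the pathway, from lists chosen with earlier results of these data known, were read in the same fit. Of 32 other class I and class I-like genes, 15 were tested. In allogeneic against syngeneic 7 rose and 0 fell (6 and 3 with library totals only), with a median log2 fold change of 0.36, where 10.15% of all genes rose and 6.380% fell. In syngeneic against control 7 rose and 2 fell, with a median of 0.40, where 26.44% and 25.62% of all genes did. Of these 7, H2-M2 and Raet1d had 0 counts in all control libraries and passed the filter on low counts only through transplanted mice, so that a rise was built into their being tested. With a filter of at least 1 CPM in 4 libraries, 5 rose and 3 fell. H2-Q1 stood at 9.63 ± 2.23, 25.9 ± 6.48 and 259 ± 24.3 CPM in control, syngeneic and allogeneic libraries and rose by 3.32 ± 0.17 in allogeneic against syngeneic. H2-Q10 (3.26 ± 0.19), H2-Q5 (3.57 ± 0.23) and H2-Q2 (3.30 ± 0.23) rose by amounts like that of H2-K1 (3.33 ± 0.14). With 77.1%, 92.0%, 64.6% and 91.3% of their 50-base windows unique, H2-Q1, H2-Q10, H2-Q5 and H2-Q2 are as uncertain as the members. Hfe, the class I-like regulator of iron uptake, fell by 1.10 ± 0.14 in syngeneic against control (edgeR adjusted p = 3.26e-06). The syngeneic against control count was 3 higher and 3 lower when only those groups were fitted.

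Of 19 genes that supply and load peptides, 13 rose and 0 fell in allogeneic against syngeneic, with a median log2 fold change of 0.79. Among all genes 10.15% rose and 6.380% fell there. The immunoproteasome subunits Psmb8 and Psmb9 rose by 1.56 ± 0.08 and 1.68 ± 0.11, and the proteasome activator subunits Psme1 and Psme2 by 1.47 ± 0.11 and 1.41 ± 0.10. Psmb8 stood at 158 ± 14.0, 212 ± 7.16 and 628 ± 59.9 CPM in control, syngeneic and allogeneic libraries. Of the 19, 13 rose and 4 fell in syngeneic against control, with a median of 0.44, where 26.44% of all genes rose and 25.62% fell; the count that fell is near the latter share. Canx, the chaperone calnexin that holds new heavy chains, rose by 1.18 ± 0.05 there and was not called in allogeneic against syngeneic (0.12 ± 0.05). Tap2, a subunit of the peptide transporter, fell by 1.80 ± 0.19 in syngeneic against control, from 113 ± 11.7 to 32.6 ± 8.76 CPM (edgeR adjusted p = 2.16e-07). It rose by 1.13 ± 0.18 to 71.4 ± 17.7 CPM in allogeneic libraries (edgeR adjusted p = 0.000179). Sec61a1, the channel through which heavy chains enter the endoplasmic reticulum, fell by 1.54 ± 0.12 in syngeneic against control.

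Of 27 genes for transcription of class I and its interferon signals, 26 were tested, and 8 rose and 4 fell in allogeneic against syngeneic (5 and 9 with library totals only), with a median of 0.15, where 10.15% and 6.380% of all genes did. With a library left out, 1 to 4 fell. The transcription factors Irf1 (2.29 ± 0.12), Irf7 (2.71 ± 0.21) and Stat2 (1.55 ± 0.17) rose. In syngeneic against control 6 rose and 9 fell (3 and 11 with library totals only, 8 and 4 with the GC and length offset), with a median of -0.18. Both counts are near the shares of all genes (26.44% and 25.62%). Irf7 (1.99 ± 0.21) rose there as B2m, H2-K1 and H2-D1 did. Irf1 fell by 0.74 ± 0.12, as did Ifngr1, a chain of the interferon-gamma receptor (-0.95 ± 0.07), and the kappaB-binding subunit Rela (-1.12 ± 0.11). Stat2 fell by 0.51 ± 0.17, a call lost in 6 of 23 alternatives, among them the GC and length offset and the fits without control replicate 3 or syngeneic replicate 1 or 4.

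Of 21 receptor genes listed for binding class I or related ligands, which is not established for all of them, 9 were tested. In allogeneic against syngeneic, where 10.15% of all genes rose and 6.380% fell, 0 fell and 6 rose. This count was 4 with no filter and by DESeq2, 5 with the replicate block, and 4 in 7 of the 12 fits with a library left out (syngeneic replicate 1, 2 or 4, or any allogeneic one). The calls that were lost there are Klra2 and Klrk1, both with 0 counts in some control and syngeneic libraries. Klra2 had 9, 4, 0 and 0 counts in control and 0, 0, 34 and 0 in syngeneic libraries. It passed the filter on low counts only through allogeneic libraries, so that a rise was built into its being tested. It is still counted among the 6. The inhibitory receptor gene Lilrb4a stood at 6.12 ± 2.15 CPM in control, 21.2 ± 3.75 in syngeneic and 175 ± 29.0 in allogeneic libraries and rose by 3.05 ± 0.20 in allogeneic against syngeneic (edgeR adjusted p = 2.49e-09). Pirb, which binds class I molecules directly, rose by 0.91 ± 0.23, Lilr4b by 2.22 ± 0.49 and Cd244 by 2.27 ± 0.51. Klrk1, which encodes NKG2D, had 76, 49, 0 and 71 counts in syngeneic and 642, 1173, 1207 and 764 in allogeneic libraries. Its fitted difference of 4.57 ± 1.28 (edgeR adjusted p = 0.0321) was not called in 12 of 23 alternatives (adjusted p up to 0.0884). Natural killer cell markers summed to at most 2.40 CPM, and the only 1 tested, Klrb1c, was also called higher. Whether Klrk1 counts came from such cells was not tested. In syngeneic against control Lilrb4a rose by 1.78 ± 0.20, and Klrd1, the CD94 partner chain in the receptors of Qa-1, fell by 1.20 ± 0.37. The 7 others were not called there, where 26.44% of all genes rose and 25.62% fell. Pira6 was called in neither comparison (1.21 ± 0.75 and -0.62 ± 0.75).

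Over all 12 libraries, the 5 genes of 9218 compared whose log2 CPM ran most like B2m were Cxcl9 (Pearson r 0.9971), Bst2 (0.997), Ctss (0.997), Ms4a6c (0.9969) and Cd52 (0.9964). Most like the mean of the 7 tested members were H2-Q2 (0.9974), H2-Ab1 (0.9969), Cd74 (0.995), H2-Q10 (0.9944) and Gm11127 (0.9919). These values mostly hold the 3 group levels: after subtracting group means r was 0.549 to 0.797 for the first 5 and 0.603 to 0.871 for the second. Among the members themselves this within-group r ran from 0.066, between B2m and H2-M3, to 0.98. Libraries share scaling, and r is given as a description. H2-Q10 shares transcript sequence with H2-D1, and Gm11127 with H2-T23. How far reads of shared sequence entered these r values was not tested.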

How the data were processed

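The authors deposited 1 table of raw read counts per gene symbol, whole numbers, for 12 libraries; the labels give 4 mice per group. Per the labels' protocols, RNA of sorted microglia was extracted with Picopure and used at an integrity value of at least 8. Per the submitters' processing notes, Trimmomatic 0.36 and STAR 2.5.2b were used with the mouse build mm9. The counting tool, annotation, strand setting, handling of shared reads and any batch were not given in the sources used here. Groups and replicate numbers come from the sample titles. Members, lists and tests were chosen with earlier results of these data known.

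From the deposited counts, CPM and fold changes were computed with edgeR 4.0.16 in R 4.3.3 (TMM, filterByExpr with a minimum count of 10, 1 robust quasi-likelihood fit of group means over 12 libraries, Benjamini-Hochberg adjustment over 12695 genes). Ratios to B2m were tested by exact permutation (SciPy 1.17.1), in 21 tests, since 3 heavy chains had no ratio. Lengths, GC content, coding sequences and promoters come from GENCODE transcripts and RefSeq promoters of GRCm38.p6, matched by symbol (23298 directly, 668 by synonym, 362 not; 99.4% of tested genes had length and GC); no coordinate was compared with mm9. Coding sequences were aligned with MAFFT 7.526 in place of protein identities.

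Named genes are all members, of each list the 4 with the smallest p in each of allogeneic against syngeneic and syngeneic against control (mean log2 CPM of at least 0), and the 5 genes most like B2m and the members' mean; marker genes and other genes at 0 were named after their values were seen. A gene that the rule gives and the text does not name is not reported here; counts of lists include it. Alternatives were RLE factors, library totals, other filters, DESeq2 1.42.0, limma-voom (limma 3.58.1), a fold change limit, only the groups compared, a replicate block, an offset for length and GC (loess span 0.3) and each library left out. The method was tested on simulated counts. At 32652208 to 46126118 counts per library, counting error is small beside replicate spread for the 7 tested members; floors of 3 counts cover counting error only.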

Additional observations from a re-analysis of the deposited data

Results flagged for a closer look

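In groups of 4 libraries, a library was picked out when its gap to the nearest other, divided by the group's range, was above the critical value of Dixon's test. Of 39 groups checked 2 had such a library, and chance gives about 1 in 20. B2m was at 4548 CPM in syngeneic replicate 1, below the 3 other syngeneic libraries at 5423 to 5535 CPM (gap over range 0.886). H2-M3 had 0.846 counts per 100 B2m counts in syngeneic replicate 3, below the others at 1.15 to 1.18 (0.903).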

How the results depend on the processing

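All 7 tested members stayed higher in allogeneic against syngeneic and against control under each alternative run, including the replicate block and each library left out (7 to 7 called). In syngeneic against control 5 stayed higher and 1 lower with each library left out (5 to 5 and 1 to 1), 4 higher with library totals only, and 4 higher and 0 lower against a log2 fold change limit of 0.5. The larger second step was called for 6 to 7 members with a library left out; the exception was B2m, whose adjusted p was 0.0593 with RLE factors, 0.0643 with library totals, 0.068 with the replicate block (0.31 on the log2 scale) and 0.233 without syngeneic replicate 1. Same-numbered libraries did not deviate together (0 of 12 pairs with r over 0.1, -0.015 to 0.0317), so the numbers are not taken as pairs; with the replicate block, 7 members were called higher in allogeneic against syngeneic, 5 higher and 1 lower in syngeneic against control, and 6 in the difference of the steps. A block of the ratios could not be tested, since its smallest p is 0.125, and with a library left out the smallest p is 0.0571.

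Heavy chains whose ratio to B2m differed in syngeneic against control numbered 3, but 6 with the GC and length offset, and 5 with the summed heavy chains as denominator. With that denominator the log2 difference turned for H2-K1 (0.48) and H2-D1 (0.37) in syngeneic against control and for H2-T23 (-0.49) in allogeneic against syngeneic (exact permutation adjusted p = 0.0303 each), since it then compares heavy chains with each other. With the offset it turned for H2-K1 (0.82), H2-D1 (0.93) and H2-Q4 (0.57) in syngeneic against control, for H2-T23 in allogeneic against control (0.63), and for the H2-K1 to H2-D1 ratio in syngeneic (-0.11) and allogeneic against control (-0.19), and in allogeneic against syngeneic that ratio was called (-0.08, exact permutation adjusted p = 0.0333); the cause was not tested. Depth limits only H2-Q6, H2-Q7 and H2-T22. Against the limit of 0.5, called genes numbered 497 higher and 129 lower in allogeneic against syngeneic, 1987 and 2069 in syngeneic against control, 2432 and 2523 in allogeneic against control, and 1173 and 1028 in the difference of the steps (1828 and 1972 without it). Peptide supply genes that rose in syngeneic against control then numbered 5 rather than 13, and receptors that rose in allogeneic against syngeneic 3 rather than 6 (4 to 6 with a library left out). Other class I genes in syngeneic against control were 4 higher and 4 lower by limma-voom, against 7 and 2.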

Other observations

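Some genes outside the rule for naming stood out after their values were seen. Nlrc5, the transactivator of class I promoters, was at 2.15 ± 1.53 CPM in control, 2.63 ± 1.64 in syngeneic and 33.1 ± 4.98 in allogeneic libraries. It rose by 3.64 ± 0.54 in allogeneic against syngeneic (edgeR adjusted p = 0.000129) and was not called in syngeneic against control (0.30 ± 0.51, edgeR adjusted p = 0.656), where B2m, H2-K1 and H2-D1 rose. H2-M2, a non-classical gene with 98.3% of its 50-base windows unique, had 0 counts in the control group, 63 in the syngeneic and 500 in the allogeneic group, and lay between 1.12 and 6.62 CPM in the allogeneic libraries; its difference between allogeneic and syngeneic was not called (edgeR adjusted p = 0.102). Tap1, the partner of Tap2 in the peptide transporter, was at 30.5 ± 7.16, 24.5 ± 2.36 and 97.4 ± 23.5 CPM in control, syngeneic and allogeneic libraries, and rose by 1.99 ± 0.18 in allogeneic against syngeneic (edgeR adjusted p = 1.3e-07).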
